A study of Drosophila melanogaster with 6 samples.

Results

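The genes described here encode the nuclear subunits of the oxidative phosphorylation machinery of Drosophila melanogaster, taken by name. A gene was a member if a probe set was annotated to it alone and its symbol began with ND-, Sdh, UQCR, COX or ATPsyn, the prefixes of complexes I, II, III, IV and V. This gave 67 of the 10844 genes measured, from 69 probe sets, with 31 genes in complex I, 7 in complex II, 4 in complex III, 11 in complex IV and 14 in complex V. Of the 67, 49 are subunits, 17 are copies of subunit genes and 1, Sdhaf3, is an assembly factor. A copy is marked by a final L in the symbol, or by an L before a final digit. ND-MNLL also ends in L but is a subunit. A reference gene table holds 91 genes with these prefixes. The other 24, among them SdhA, ND-23, ND-24, ND-30, ND-49, UQCR-C1, UQCR-C2, COX6B and ATPsynG, are not analysed here. The rule used names only, with no filter on low values, and 65 of the 67 had a mean above the control level described below (the exceptions were COX6AL2 and SdhAL).

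The study searched for genes that respond to Egfr, the fly's epidermal growth factor receptor. RNA of wing discs, the sheets of larval cells from which the wing and part of the thorax develop, was measured on 6 arrays, from flies raised at 25 °C and dissected in the third larval instar. In 3 samples (DN1 to DN3) the discs expressed a dominant negative EGFR, which blocks signalling, and in 3 (ACT1 to ACT3) an activated EGFR named TOP in the labels. Both transgenes were driven by 71B-Gal4, so both groups carry the driver, and no group without a transgene was used here. 71B-Gal4 is known as a driver active in a part of the disc, while RNA of the disc was measured, so cells that do not express the transgene may be in every sample. Whether the 3 samples of a group came from different animals or dissections is not in the labels, so a p-value here reflects the spread of these samples, part or all of which may be technical. Values are log2 signals, and every difference below is activated minus dominant negative.

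Oxidative phosphorylation takes place in the inner mitochondrial membrane. Complex I oxidises NADH and complex II oxidises succinate, and both pass electrons to ubiquinone. Complex III passes them on to cytochrome c and complex IV to oxygen, and complexes I, III and IV pump protons. Complex V, the ATP synthase, lets the protons flow back through a rotor and makes ATP. Nuclear genes encode most of the subunits, and a small set comes from mitochondrial DNA. In flies several subunit genes have a second copy, many of which are known mainly from the testis.

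Of the 2 probe sets of Egfr itself, that of higher mean read 8.50, 9.33 and 9.09 in DN1 to DN3 and 10.40, 10.26 and 10.82 in ACT1 to ACT3. The other read 8.66, 10.03 and 10.11 against 8.50, 8.78 and 9.75. The groups were apart at the first probe set and overlapped at the second, and the sources used here do not give which part of either transgene a probe set covers. Of 14 wing disc markers 13 were measured, and all of these had means above the yeast control level of 5.96, the highest array mean of 4 probe sets for transcripts the fly lacks. Of the 13, 4 had a difference above 0 and 9 below, with a median of -0.19, and their summed levels were 12.69 to 13.11 in the dominant negative group and 12.94 to 13.01 in the activated group, on the scale given next. Markers of other tissues also differed between arrays. Their signals were summed within each array and are given on the log2 scale. The 7 of 7 salivary gland markers measured all had differences below 0. Their summed levels were 12.004, 13.68 and 13.75 in DN1 to DN3 and 11.66, 12.02 and 13.37 in ACT1 to ACT3. DN1, ACT1 and ACT2 were thus the low arrays. For the fat body 3 of 6 markers were measured, all with differences below 0. Their sums were 12.03 to 13.05 in the dominant negative group against 11.00 to 12.64 in the activated group. For trachea 4 of 5 were measured, all below 0 (12.74 to 13.33 against 12.24 to 12.82). For the adepithelial myoblasts 3 of 4 were measured, all below 0 (10.44 to 10.65 against 10.08 to 10.29), and here the summed levels did not overlap. For muscle 5 of 8 were measured, 2 above 0 and 3 below (10.90 to 11.76 against 10.76 to 11.39). The 5 hemocyte markers measured summed to 9.81 to 9.91 against 9.61 to 9.89, the 2 neuron markers to 7.69 to 8.23 against 7.62 to 8.21, and the 2 glia markers to 8.40 to 8.76 against 8.35 to 8.69. The markers of the salivary gland, fat body, trachea, myoblasts and neurons all had means above the yeast control level, as did 4 of the 5 for muscle, 3 of the 5 for hemocytes and 1 of the 2 for glia. The part of any of these tissues in the results below was not tested, and in whole discs fewer cells of a type and less RNA per cell cannot be told apart.

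No oxidative phosphorylation gene passed the test between the activated and the dominant negative discs. In limma's fit over all 10844 genes with Benjamini-Hochberg adjustment, 0 of 67 members had an adjusted p under 0.05, beside 0 genes overall (0.0%, smallest adjusted p = 0.0521). At an unadjusted p under 0.05 the count was also 0 of 67, where 2.38% of all genes reached it. The smallest unadjusted p among members was 0.0606, for ND-18, with an adjusted p of 1.00. No member differed by 2-fold or more, as 0.0922% of all genes did. With 3 against 3 arrays an exact permutation test of a single gene cannot give a two-sided p under 0.1.

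The differences were small. Of the 67 members, 27 had a log2 difference above 0 and 40 below, with a median of -0.03, where 53.2% of all genes lay above 0 with a median of 0.01. After quantile normalization the members stood at 34 above and 33 below. The differences ran from -0.48 for ND-18 to 0.24 for ND-24L. The median standard error (SE) was 0.17, and the 95% interval of the difference lay within 2-fold in either direction for 66 of 67 members and within 1.5-fold for 51. The exception at 2-fold was ATPsynbeta, whose interval ran from -1.03 to 0.27.

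**Figure D1:**
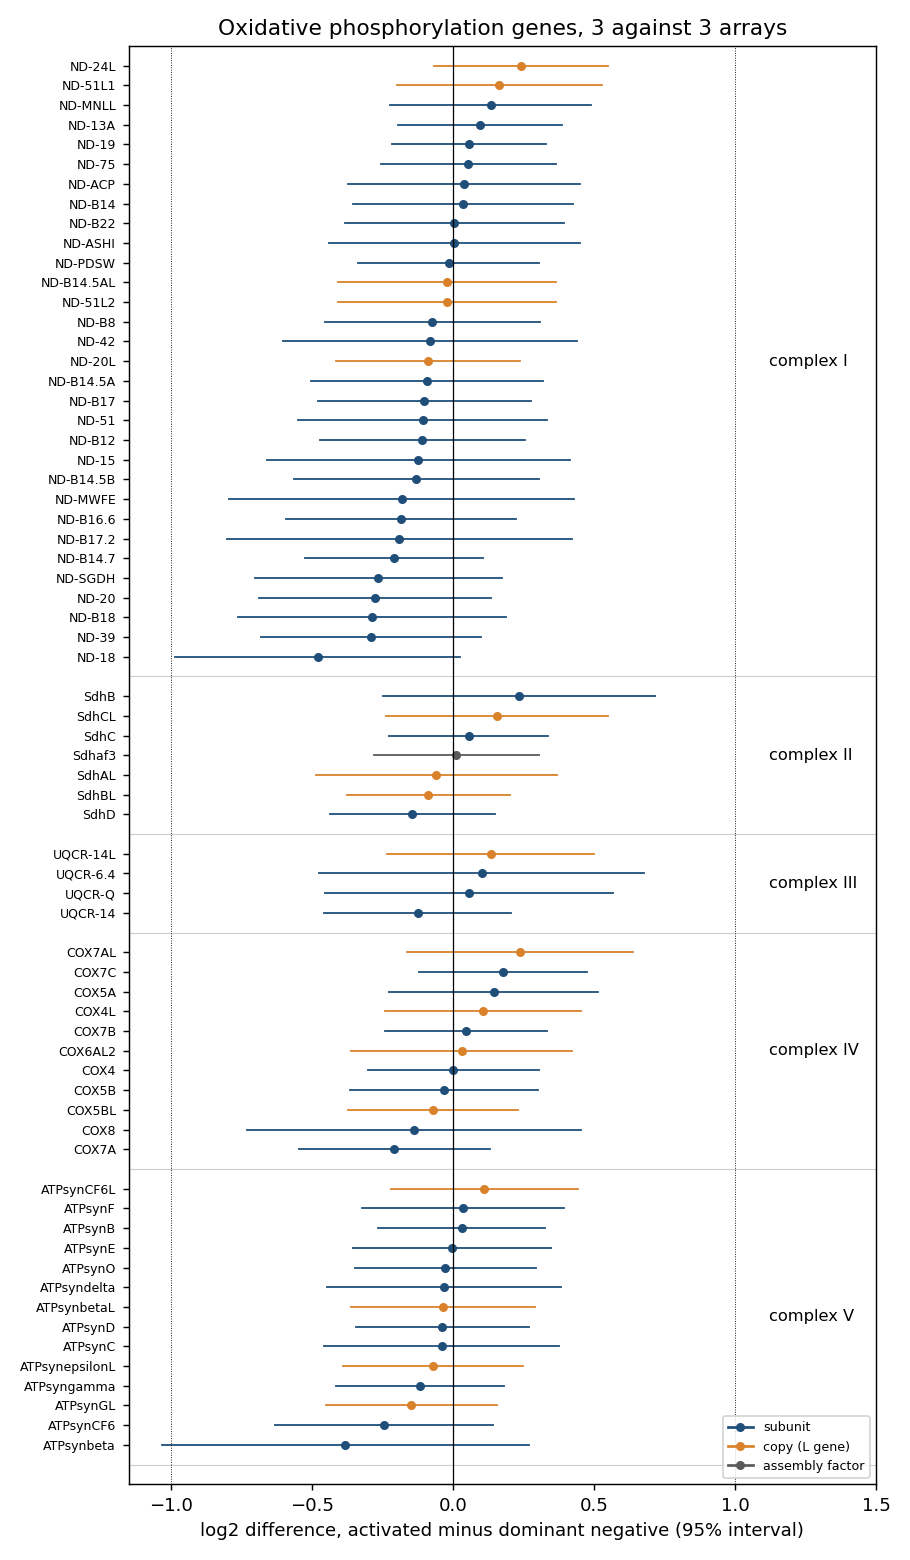
Log2 difference (activated minus dominant negative, horizontal axis) of each of the 67 genes with its 95% interval from limma, grouped by complex. Blue marks subunits, orange copies and grey the assembly factor, and dotted lines mark 2-fold. Every interval includes 0, and that of ATPsynbeta alone reaches past a 2-fold line, with a lower end of -1.03.

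In 3 members the 3 activated values all lay above the 3 dominant negative values, and in 0 all lay below. Over all genes 3.24% were separated with the activated group higher and 3.12% with it lower. The 3 were ND-24L, ND-19 and COX7C. ND-24L, a copy of the gene for a catalytic iron-sulfur subunit of complex I, read 7.60, 7.62 and 7.54 in DN1 to DN3 and 7.80, 8.01 and 7.67 in ACT1 to ACT3, a difference of 0.24 (SE 0.14). ND-19, an accessory subunit of complex I, read 10.86, 10.86 and 10.85 against 10.89, 10.90 and 10.93, a difference of 0.06 (SE 0.12). It varied least of the members, with a range of 0.08 over the 6 arrays, and the gap between its groups was smaller still. COX7C, a small subunit of complex IV, read 6.22, 6.03 and 6.21 against 6.35, 6.41 and 6.23, a difference of 0.18 (SE 0.13). In COX7C the values of DN1 and ACT3 were almost level, and its mean of 6.24 was close to the yeast control level of 5.96.

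Complex I held the largest group, 26 subunits and 5 copies. Of its subunits, 8 had a difference above 0 and 18 below, with a median of -0.10. After quantile normalization 9 lay above and 17 below, with a median of -0.07. The catalytic arm that takes electrons from NADH to ubiquinone was represented by 3 subunits. ND-75, which carries iron-sulfur clusters, had a difference of 0.05 (SE 0.14). ND-51, which binds the flavin and NADH, had one of -0.11 (SE 0.20). ND-20, which holds the last iron-sulfur cluster before ubiquinone, had one of -0.28 (SE 0.18). None of the 3 separated the groups. The 8 accessory subunits of the proton-pumping membrane arm that belong to the B series of human names (NDUFB) had 3 above 0 and 5 below, with a median of -0.06, and stood at 4 and 4 after quantile normalization. Among these were ND-MNLL at 0.13 and ND-SGDH at -0.26. The 15 other accessory subunits had 4 above and 11 below, with a median of -0.12, and the same counts after quantile normalization.

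The subunit with the smallest p was ND-18, the fly counterpart of human NDUFS4, an accessory subunit at the catalytic arm. It read 9.91, 9.74 and 9.56 in DN1 to DN3 and 9.41, 8.72 and 9.62 in ACT1 to ACT3, with means of 9.73 ± 0.17 and 9.25 ± 0.47 (SD, n = 3). ACT2 was the lowest array by a wide margin, and ACT3 lay above DN3, so the groups overlapped. The difference was -0.48 (SE 0.22), or 1.39-fold lower in the activated discs, and without ACT2 it was -0.21. ND-39, the counterpart of human NDUFA9, read 10.75, 10.66 and 10.68 against 10.52, 10.04 and 10.67, a difference of -0.29 (SE 0.17). Its dominant negative values were tightly grouped (SD 0.05, n = 3), ACT2 was far below them, and ACT3 lay among them. ND-B18, the counterpart of human NDUFB7, read 10.65, 10.28 and 10.30 against 10.33, 9.65 and 10.37, a difference of -0.29 (SE 0.21). Here DN1 was the highest and ACT2 the lowest, while the other 4 arrays lay close together.

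Of the other complex I subunits, ND-B17.2 and ND-42 varied widely over the arrays, and their groups overlapped. ND-B17.2, the counterpart of human NDUFA12, read 8.71, 8.55 and 9.22 against 8.64, 8.09 and 9.18, a difference of -0.19 (SE 0.27) and a range of 1.13. DN3 and ACT3 were both high and ACT2 was low. ND-42, the counterpart of human NDUFA10, read 10.87, 10.83 and 10.99 against 10.90, 10.25 and 11.28, a difference of -0.08 (SE 0.23). The activated group held both its lowest and its highest value, so its difference became 0.20 without ACT2 and -0.32 without ACT3. ND-B22, the counterpart of human NDUFB9, read 12.21, 11.89 and 11.99 against 12.18, 11.71 and 12.21, a difference of 0.01 (SE 0.17). ND-B8, the counterpart of human NDUFA2, read 6.55, 6.33 and 6.43 against 6.57, 6.03 and 6.50, a difference of -0.07 (SE 0.17). In both, ACT2 was the lowest array and the groups overlapped. The remaining complex I subunits had differences between -0.21 (ND-B14.7) and 0.10 (ND-13A). ND-ACP, the mitochondrial acyl carrier protein, which also serves fatty acid synthesis, stood at 0.04 (SE 0.18).

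Complex II, succinate dehydrogenase, links the citric acid cycle to the chain. Its iron-sulfur subunit SdhB read 11.27, 11.46 and 10.70 in DN1 to DN3 and 11.12, 11.40 and 11.62 in ACT1 to ACT3, a difference of 0.23 (SE 0.21). DN3 was the lowest array, and without it the difference was 0.01. SdhC, 1 of the 2 membrane anchors, read 10.50, 10.43 and 10.53 against 10.57, 10.46 and 10.59, a difference of 0.06 (SE 0.13) over a range of 0.16. SdhD, the other anchor, read 10.63, 10.66 and 10.64 against 10.41, 10.44 and 10.64, a difference of -0.14 (SE 0.13). Its dominant negative arrays were tightly grouped (SD 0.02, n = 3), ACT1 and ACT2 lay below them, and ACT3 lay among them. Sdhaf3, which helps to assemble the iron-sulfur subunit, read 8.15, 8.18 and 8.39 against 8.24, 8.27 and 8.25, a difference of 0.01 (SE 0.13). Its activated values lay inside the dominant negative range.

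The copies of complex II genes showed no shared direction. SdhAL, named for the flavoprotein subunit, read 6.00, 5.59 and 5.76 against 5.68, 6.07 and 5.42, a difference of -0.06 (SE 0.19), and its mean of 5.75 did not exceed the yeast control level. SdhBL read 9.12, 8.96 and 8.95 against 8.94, 8.96 and 8.86, a difference of -0.09 (SE 0.13). SdhCL read 6.41, 6.22 and 5.91 against 6.27, 6.58 and 6.16, a difference of 0.16 (SE 0.18), and its mean of 6.26 was close to that level. All 3 overlapped between groups.

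Complex III was represented by 3 small subunits and 1 copy, since the core proteins UQCR-C1 and UQCR-C2 were not analysed here. UQCR-14, the counterpart of human UQCRB, read 10.02, 10.28 and 10.28 against 9.95, 9.995 and 10.25, a difference of -0.13 (SE 0.15). UQCR-Q read 11.90, 11.98 and 12.45 against 12.18, 11.75 and 12.58, a difference of 0.06 (SE 0.23). UQCR-6.4 read 11.23, 11.56 and 11.95 against 11.39, 11.42 and 12.24, a difference of 0.10 (SE 0.26). In UQCR-Q and UQCR-6.4 the arrays DN3 and ACT3 were the 2 highest, and the spread within each group was larger than the difference between them. UQCR-14L, the copy, read 7.42, 7.13 and 7.18 against 7.63, 7.35 and 7.15, a difference of 0.13 (SE 0.16), with overlapping groups.

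Complex IV, cytochrome c oxidase, has a catalytic core from mitochondrial DNA and a shell of nuclear subunits. Of its 7 nuclear subunits here, 4 lay above 0 and 3 below, with a median of 0.00, and after quantile normalization 5 lay above and 2 below. COX7A read 12.83, 12.91 and 12.82 in DN1 to DN3 and 12.67, 12.40 and 12.86 in ACT1 to ACT3, a difference of -0.21 (SE 0.15). ACT1 and ACT2 lay below the dominant negative arrays and ACT3 lay between them. COX4 read 13.03, 13.10 and 13.21 against 13.12, 12.99 and 13.24, a difference of 0.00 (SE 0.13). COX7B varied little, with a range of 0.19, and COX8 varied widely, with a range of 0.98 and a difference of -0.14 (SE 0.26). COX5A had a difference of 0.14 (SE 0.17), and COX5B one of -0.03 (SE 0.15).

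Of the 4 complex IV copies, 3 lay above 0 and 1 below, and after quantile normalization 2 lay on each side. COX7AL read 6.13, 5.89 and 6.08 against 6.02, 6.63 and 6.16, a difference of 0.24 (SE 0.18), with ACT2 the highest array. The mean of COX7AL, 6.15, was close to the yeast control level of 5.96. COX6AL2 read 5.49, 5.70 and 5.41 against 5.90, 5.41 and 5.37, a difference of 0.03 (SE 0.17), and its mean of 5.55 did not exceed the control level. COX4L and COX5BL had differences of 0.11 (SE 0.15) and -0.07 (SE 0.13), and the mean of COX4L, 6.12, was also close to the control level. None separated the groups.

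**Figure D2:**
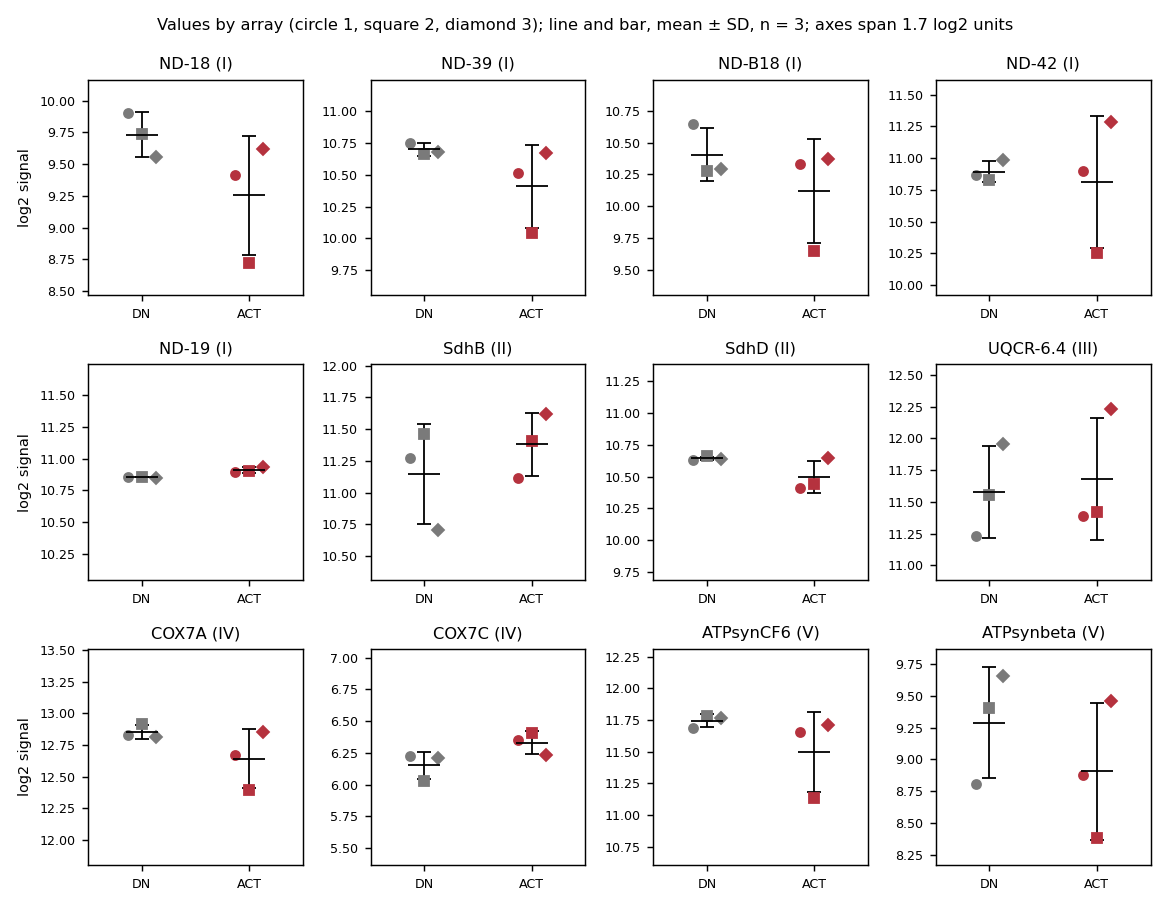
Log2 signal by array (vertical axis, each panel spanning the same number of log2 units) for 12 genes of complexes I to V in the dominant negative (DN, grey) and activated (ACT, red) groups; circles, squares and diamonds are arrays 1, 2 and 3, and the line and bar are the mean and SD of 3. The ACT2 square is the lowest point for ND-18 (8.72), ND-39 (10.04), ND-B18 (9.65), ND-42 (10.25), COX7A (12.40), ATPsynCF6 (11.13) and ATPsynbeta (8.38), while ND-19 and COX7C show groups that do not overlap.

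Complex V had 10 subunits, 2 with a difference above 0 and 8 below, and a median of -0.04. This direction turned after quantile normalization, where 6 lay above and 4 below with a median of 0.01. ATPsynbeta, the catalytic subunit of the head, read 8.80, 9.41 and 9.66 against 8.88, 8.38 and 9.46, a difference of -0.38 (SE 0.29). It had the largest range of the members, 1.27, and without ACT2 its difference was -0.12. The low arrays were DN1, ACT1 and ACT2 and the high ones DN2, DN3 and ACT3, so the groups overlapped. ATPsyngamma and ATPsyndelta, parts of the central stalk that turns in the head, had differences of -0.12 (SE 0.13) and -0.03 (SE 0.18). ATPsynCF6, of the peripheral stalk that holds the head still, read 11.68, 11.78 and 11.76 against 11.65, 11.13 and 11.71, a difference of -0.24 (SE 0.17). Only ACT2 stood apart in it, and without ACT2 the difference was -0.06. The other peripheral stalk subunits ATPsynB, ATPsynD and ATPsynO stood at 0.03, -0.04 and -0.03.

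The membrane part of complex V showed no more than this. ATPsynE read 13.02, 13.22 and 13.36 against 13.05, 13.12 and 13.42, and its difference rounded to 0.00 (SE 0.16). ATPsynF stood at 0.04 (SE 0.16). ATPsynC, which forms the rotor ring, had 2 probe sets that disagreed in sign. The one used here read 11.39, 11.86 and 11.42 against 11.43, 11.30 and 11.82, a difference of -0.04. The other read 7.45, 7.10 and 7.71 against 7.40, 8.30 and 7.57, a difference of 0.33, with ACT2 as its highest array and as the lowest of the one used. ND-MNLL was the other member with 2 probe sets, and these also disagreed, at 0.13 for the one used and -0.19 for the other. Of the 4 complex V copies, ATPsynGL read 7.85, 7.74 and 8.01 against 7.75, 7.77 and 7.64, a difference of -0.15 (SE 0.13). ATPsynCF6L, ATPsynbetaL and ATPsynepsilonL stood at 0.11, -0.03 and -0.07.

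The mean over the 49 subunits was 11.03, 11.03 and 11.11 in DN1 to DN3 and 10.98, 10.76 and 11.22 in ACT1 to ACT3, or 11.06 ± 0.05 and 10.99 ± 0.23 (SD, n = 3). The activated group thus held both the lowest array, ACT2, and the highest, ACT3, and the dominant negative arrays lay between them. The mean over the 17 copies was 7.70, 7.51 and 7.55 against 7.68, 7.70 and 7.48. Here DN1 and ACT2 were level at the top, with ACT1 close to them, and ACT3 was the lowest. Over all 67 members the array means were 10.14, 10.09 and 10.17 against 10.10, 9.94 and 10.23.

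By complex, the mean over subunits of complex I was 10.61, 10.51 and 10.62 in DN1 to DN3 and 10.51, 10.21 and 10.71 in ACT1 to ACT3. For complex V it was 11.88, 12.05 and 12.09 against 11.91, 11.70 and 12.16. For complex IV it was 11.45, 11.48 and 11.55 against 11.47, 11.33 and 11.67. In these 3 complexes ACT2 was the lowest array and ACT3 the highest. Complex III stood at 11.05, 11.27 and 11.56 against 11.17, 11.06 and 11.69, with DN1 and ACT2 nearly level at the bottom. Complex II stood at 10.80, 10.85 and 10.62 against 10.70, 10.77 and 10.95, and here DN3 was the lowest and ACT2 lay at neither end.

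**Figure D3:**
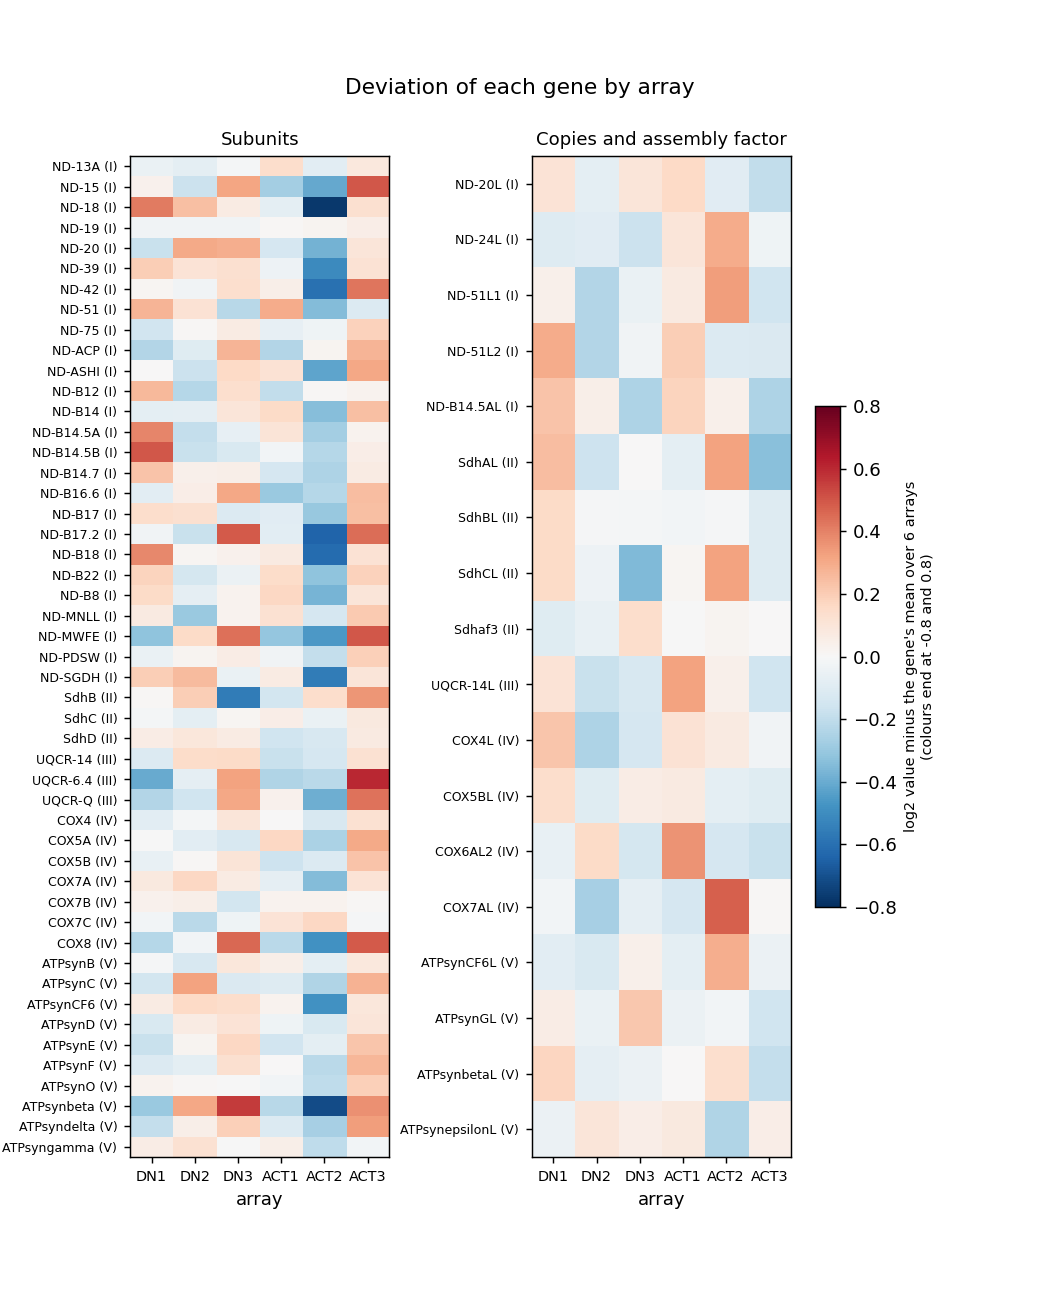
Deviation of each gene's log2 value from its own mean over the 6 arrays (colour scale, ending at -0.8 and 0.8), by array, for the 49 subunits on the left and the 17 copies and the assembly factor on the right; the complex is given in brackets. The ACT2 column is blue for most subunits and the ACT3 column red, while neither holds among the copies.

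Counted gene by gene, ACT2 was the lowest of the 6 arrays in 33 of 49 subunits (67.3%), against 21.0% of all genes. ACT3 was the highest in 23 of 49 (46.9%), against 15.0% of all genes. These counts were made after the values were seen, and they were not tested. ACT2 was the lowest in 20 of 26 subunits of complex I, 8 of 10 of complex V, 4 of 7 of complex IV, 1 of 3 of complex III and 0 of 3 of complex II. Among the 17 copies it was the lowest in 1, and ACT3 was the highest in 0. The copies had a median level of 7.68. In the 4997 genes with a mean under 8, ACT2 was the lowest in 12.9% and ACT3 the highest in 8.87%.

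The pattern differed with the level of the signal. The log2 values of ACT2 were the least spread of all arrays (SD 1.48 over all genes) and those of DN2 and ACT3 the most (1.61 and 1.60), while array medians lay between 8.13 and 8.16. Of the 49 subunits, 42 had a mean of at least 10, so the 1203 genes with a mean of at least 10 are set beside them. The levels are not fully matched, with a median of 11.26 for the subunits and 10.68 for those genes. In the genes with a mean of at least 10, ACT2 was the lowest array in 43.1% and ACT3 the highest in 31.8%. Of them 39.6% had a difference above 0, with a median of -0.04. The median deviation from a gene's own mean was -0.24 in ACT2 and 0.18 in ACT3 for the subunits. For the genes with a mean of at least 10 it was -0.16 and 0.11. For the copies it was 0.04 and -0.11, and for the genes with a mean under 8 it was 0.06 and -0.07. Quantile normalization, which gives every array the same distribution, left ACT2 the lowest in 17 of 49 subunits (34.7%), beside 21.4% of the genes with a mean of at least 10. Centring each array on its median left it the lowest in 32. The part of the spread of the array in the pattern was not tested. Quantile normalization cannot test it, since it also takes out other shifts shared by genes of high signal. The summed level of the 5 muscle markers measured was also lowest in ACT2, at 10.76, close to 10.84 in ACT1 and 10.90 in DN1. DN2 and DN3 stood at 11.48 and 11.76 and ACT3 at 11.39. The summed level of the 4 trachea markers was lowest in ACT2 too, at 12.24, beside 12.33 in ACT1. In the other arrays it was 12.74 to 13.33. The part of either in the subunits' order was not tested.

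**Figure D4:**
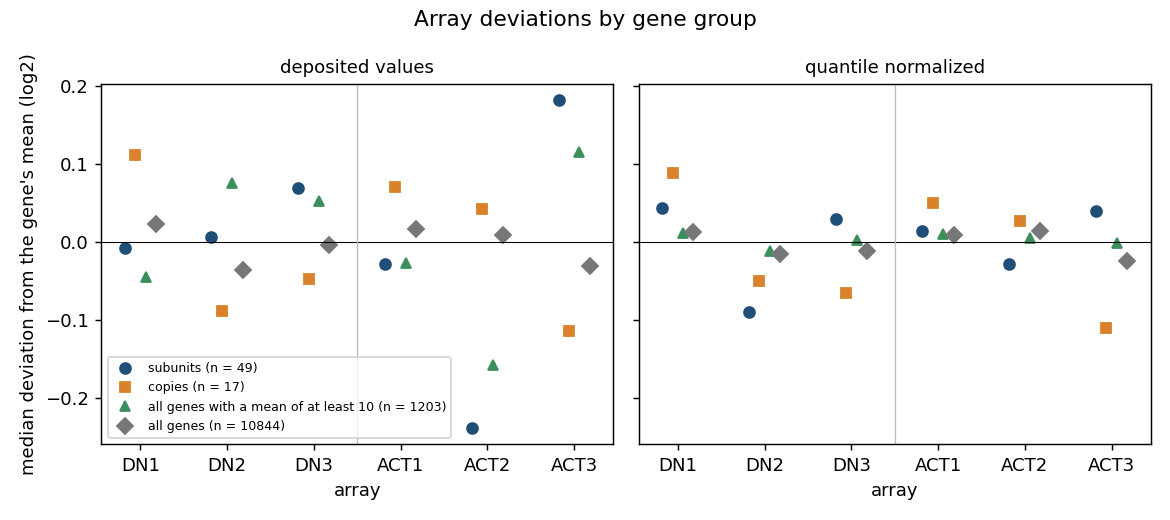
Median deviation of a gene's log2 value from its own mean (vertical axis) in each array, for the 49 subunits, the 17 copies, the 1203 genes with a mean of at least 10 and all 10844 genes, as deposited (left) and after quantile normalization (right). As deposited the subunits stand at -0.24 in ACT2 and 0.18 in ACT3. The genes with a mean of at least 10, whose median level is lower (10.68 against 11.26), stand at -0.16 and 0.11. After quantile normalization the subunits stand at -0.03 and 0.04, and their lowest array is then DN2, at -0.09.

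Because the activated group held both extremes, the direction of the group turned on which of its arrays was left out. With all arrays 18 of 49 subunits had a difference above 0. Without ACT2 it was 34 of 49, with a median of 0.05, where 51.5% of all genes and 55.3% of the genes with a mean of at least 10 lay above 0. Without ACT3 it was 8 of 49, with a median of -0.15, where the shares were 55.4% and 29.6%. In complex I the count was 17 of 26 without ACT2 and 3 of 26 without ACT3, and in complex V it was 7 of 10 and 0 of 10. Without ACT3, ND-15, ND-18, ND-39 and ATPsynbeta had an unadjusted p under 0.05. These are 5.97% of the 67 members, where 7.90% of all genes and 12.8% of the genes with a mean of at least 10 did so without ACT3. No member had an adjusted p under 0.05. With the other 4 arrays left out in turn, 14 to 24 of 49 subunits lay above 0.

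Genes of the same organelle were read in the same fit, as named lists. Respiratory chain genes whose names fall outside the prefixes were measured for 7 of 22 names, and the rest, genes of mitochondrial DNA among them, are not analysed here. Of the 7, 3 lay above 0 and 4 below, with a median of -0.01, and quantile normalization turned this to 6 and 1 with a median of 0.07. In limma's fit 0 of the 7 had an unadjusted p under 0.05 as deposited. After quantile normalization 1 of the 7 did, beside 2.68% of all genes. The alpha subunit of the ATP synthase, blw, read 13.39, 13.49 and 13.58 against 13.79, 13.41 and 13.97, a difference of 0.24 (SE 0.17). ACT2 lay among the dominant negative values and the other activated arrays above them. RFeSP, the Rieske iron-sulfur protein of complex III, stood at 0.17 (SE 0.16). levy, a subunit of complex IV, stood at -0.18 (SE 0.16), and sun, the epsilon subunit of the ATP synthase, at -0.04 (SE 0.22). The 2 proteins of the catalytic head, blw and ATPsynbeta, thus had differences of opposite sign, neither past the test.

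The citric acid cycle and pyruvate dehydrogenase list had 14 of 20 names measured, 3 above 0 and 11 below, with a median of -0.14, and 5 and 9 after quantile normalization with a median of -0.08. In limma's fit no gene of it had an unadjusted p under 0.05. mAcon2, an aconitase gene, read 6.88, 6.82 and 6.76 against 6.73, 6.41 and 6.51, a difference of -0.27 (SE 0.14), and was the list's only gene with all activated values below all dominant negative ones. Idh3a and Idh3g, subunits of the NAD-dependent isocitrate dehydrogenase, stood at -0.24 (SE 0.18) and -0.17 (SE 0.15). ScsbetaG, a subunit of succinyl-CoA synthetase, stood at -0.23 (SE 0.17). Scsalpha1, another subunit of that enzyme, named after its values were seen, had the groups apart the other way, at 0.11 (SE 0.12).

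Of the 13 names of carriers of the mitochondrial membranes, 10 were measured, 2 above 0 and 8 below with a median of -0.06, and 4 and 6 after quantile normalization. The adenine nucleotide carrier sesB, which exports ATP, read 11.62, 11.90 and 12.72 against 11.95, 12.15 and 12.87, a difference of 0.24 (SE 0.31) with DN3 and ACT3 both high. The carriers Bmcp, colt and Mpcp1 stood at -0.24, -0.22 and -0.18. Assembly factors outside the prefixes had 7 of 8 names measured, 2 above and 5 below with a median of -0.06, and the same counts after quantile normalization. Mitochondrial biogenesis genes had 9 of 12 measured, 5 above and 4 below with a median of 0.02, again the same after quantile normalization, led by Lon, the matrix protease, at 0.22 (SE 0.16) and mtSSB, which binds single-stranded mitochondrial DNA, at -0.21 (SE 0.16). Glycolysis genes had 8 of 12 measured, 5 above and 3 below with a median of 0.08, and 6 and 2 after quantile normalization. Among these Pfk, which commits sugar to glycolysis, read 10.33, 10.27 and 10.51 against 10.67, 10.50 and 10.68, a difference of 0.25 (SE 0.14). ACT2 lay just under DN3, and the other activated arrays lay above all dominant negative ones. In none of these 4 lists did a gene have an adjusted or an unadjusted p under 0.05 in limma's fit of the deposited values. After quantile normalization 2 of the 8 glycolysis genes had an unadjusted p under 0.05, where 2.68% of all genes did.

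Ribosomal protein genes, those of the mitochondrion and those of the cytosol, were set beside the subunits. Of 64 mitochondrial ribosomal protein genes, 17 lay above 0 and 47 below with a median of -0.06, and 22 and 42 after quantile normalization. ACT2 was the lowest array in 37 of the 64 (57.8%). Of 37 cytosolic ribosomal protein genes, 9 lay above 0 and 28 below with a median of -0.07, and 16 and 21 after quantile normalization with a median of -0.01. ACT2 was the lowest in 19 of the 37 (51.4%). In limma's fit neither list held a gene with an adjusted or an unadjusted p under 0.05, and no difference between these lists and the subunits was tested.

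**Figure D5:**
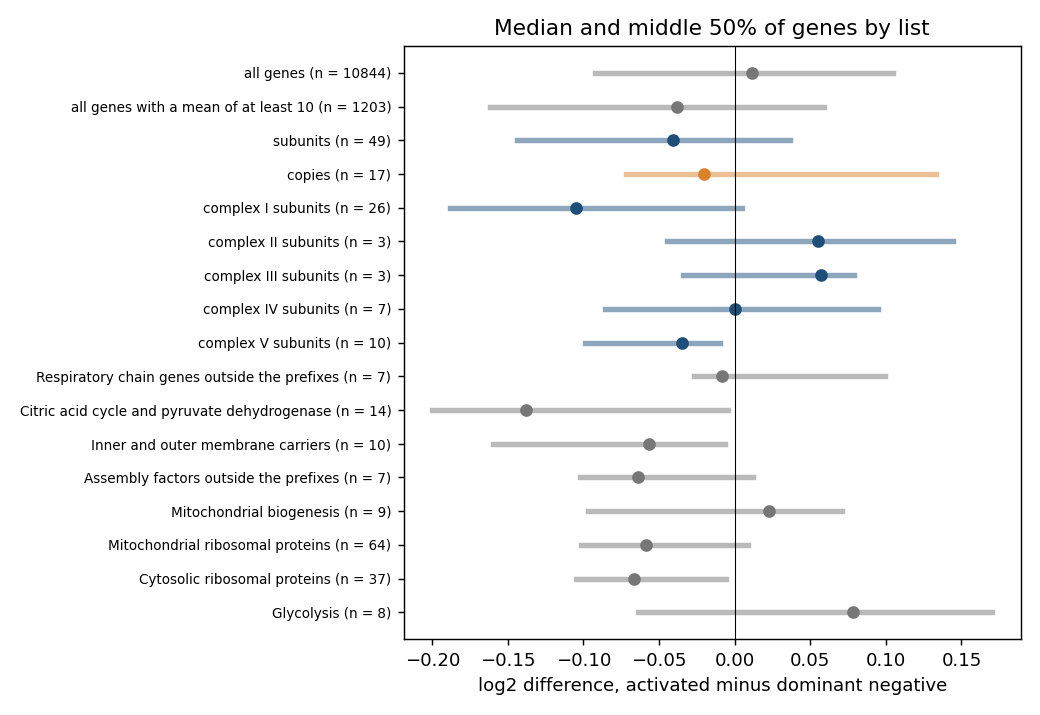
Median log2 difference (activated minus dominant negative, dot) and middle 50% of genes (bar) for all genes, the genes with a mean of at least 10, the subunits, the copies, the subunits of each complex and the other lists, as deposited, with n in brackets. The medians lie between -0.14 for the citric acid cycle list and 0.08 for glycolysis; after quantile normalization the medians of the genes with a mean of at least 10, the complex V subunits and the respiratory chain genes outside the prefixes turn to 0.01, 0.01 and 0.07, and that of the copies turns from -0.02 to 0.0025.

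The copies were read as a group of their own. Of the 17, 8 lay above 0 and 9 below with a median of -0.02, and 9 and 8 after quantile normalization. Besides those described above, ND-51L1 stood at 0.16 (SE 0.16), ND-20L at -0.09 (SE 0.15), ND-51L2 at -0.02 (SE 0.17) and ND-B14.5AL at -0.02 (SE 0.17). Of 8 markers of the male germ line, all were measured, 3 had a mean above the yeast control level, and the summed levels ran from 10.46 to 10.70 in the dominant negative group and from 10.49 to 10.70 in the activated group. Their part in the copies' signals was not tested.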

How the data were processed

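The authors deposited 1 log2 value per probe set and array for 6 arrays (3 per group), made with GCRMA per the submitters' processing notes, a method that removes background with the help of probe sequence and then summarises each probe set. The sources used here give neither its version and settings nor the genome build of the array design, and coordinates were left out. That values are on a log2 scale was inferred from their range (4.72 to 15.08). Scanner files were not used here, and precision is limited by the number of arrays. Of 14010 probe sets, 44 controls were left out. A probe table gave 1 symbol for 12443 of the remaining 13966, several for 327 and none for 1196. The 4 probe sets that pair a member with another symbol were left out. Member symbols matched a RefSeq table (Release 6 plus ISO1 MT) for all 67. Each gene was represented by its probe set of highest mean over the arrays.

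The test was limma 3.58.1 (R 4.3.3; lmFit, then eBayes, two-sided, no covariate) over 10844 genes, with Benjamini-Hochberg adjustment and a threshold of 0.05. The fit was also run on simulated data with independent noise. These lack the shifts that genes share within an array, so the fit was not tested under those. Tables were made with pandas 2.3.3 in Python 3.11.15 and figures with matplotlib 3.10.9. Alternatives were a filter at a mean of 6, quantile normalization, median centring, eBayes with trend and robust options, limma's array weights, the replicate number as a block, averaging the probe sets of each gene, all probe sets fitted, subunits alone, and each array left out. Members, lists and markers were chosen with earlier results of these data known. Values in every array are given, by rule, for 28 members: all of complex II, the 3 of smallest p and those of highest and lowest mean in each complex, and the 6 of widest range. ND-19 was chosen after its values were seen, and members with several probe sets are given by each. Up to 4 genes of smallest p are named per other list, and Scsalpha1 in addition. No sequence is printed.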

Additional observations from a re-analysis of the deposited data

How the results depend on the processing

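No oxidative phosphorylation gene had an adjusted p under 0.05 in limma's fit under any alternative run, including each array left out in turn. Over all genes, 1 was called instead of 0 in each of 3 alternatives (trend and robust options of eBayes, array weights, averaged probe sets) and 0 to 3 with an array left out. Members at an unadjusted p under 0.05 numbered 1 (1.49%) with array weights (ND-20), where 8.72% of all genes had one, and 0 to 4 (0 to 5.97%) with an array left out, where 1.48% to 7.90% of all genes did. Members without overlap between groups numbered 6 after quantile normalization (8.96%, beside 7.16% of all genes) and 6 to 15 with an array left out (8.96% to 22.4%, beside 11.98% to 23.46% of all genes), where fewer arrays make a gap likelier by construction. They were not recounted where the values stay the same (trend, weights, block, all probe sets). Members above 0 ranged from 21 (without ACT3) to 44 (without ACT2), and subunits from 8 to 34. ACT2 was the lowest array in 17 subunits after quantile normalization. The counts of subunits alone were alternatives chosen after seeing the data.

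With an array left out, 36 of the 67 members changed sign at least once, and the cause was not tested. Values follow for those named by rule and for the complex III median, also where another alternative turned the sign. After quantile normalization ATPsynE stood at 0.00054 and COX6AL2 at -0.026. COX4 stood at -0.0010 after median centring and -0.016 with array weights. Array weights also gave 0.044 for ND-B8, -0.0049 for Sdhaf3 and -0.12 for UQCR-6.4. With an array left out the complex III median ranged from -0.16 to 0.19, ATPsynE from -0.12 to 0.078, COX4 from -0.062 to 0.064, COX6AL2 from -0.14 to 0.13, ND-42 from -0.32 to 0.20, ND-B17.2 from -0.46 to 0.084, ND-B22 from -0.085 to 0.17, ND-B8 from -0.17 to 0.095, SdhAL from -0.23 to 0.092, Sdhaf3 from -0.034 to 0.086, UQCR-6.4 from -0.18 to 0.29 and UQCR-Q from -0.15 to 0.27.

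Replicate numbers 1 and 3 joined arrays that varied alike, while number 2 did not, and the main fit has no term for the number. Deviations from the group means correlated over genes at 0.61, -0.12 and 0.59 for numbers 1, 2 and 3, and DN2 correlated best with ACT3 (0.19). With the number as a replicate block, 1 member (ND-18, 1.49% of members) had an unadjusted p under 0.05, beside 5.67% of all genes, and 0 were called. Without the block, 0 members and 2.38% of all genes had one in limma's fit. The block leaves the differences as they are, and 27 members lay above 0 in both fits. Over all genes, arrays DN1 and ACT1 and arrays DN3 and ACT3 each correlated at 0.991, above the 0.965 to 0.983 within groups.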
